A study of Mus musculus with 15 samples.

Results

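The circadian clock genes were examined in the chromatin of pancreatic islets from CBA mice, an inbred strain, kept on 3 diets. The members were 10 genes of 22028 protein-coding genes, namely the activators Clock and Arntl, the repressors Per1, Per2, Per3, Cry1 and Cry2, the nuclear receptors Nr1d1 and Nr1d2, and the output factor Dbp. The list is of named genes with a place in the clock, and its rule uses no measured value. A peak was assigned to a member's promoter when it overlapped the gene's start site with 1 kb either side, and to its locus when it overlapped the gene with 20 kb either side (GRCm38, GENCODE release 21).

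Islets came from mice given a regular diet (RD), a high-fat diet (HFD), or the high-fat diet with O304, a pan-AMPK activator (HFD-O304). No group carried a genetic change, so that RD was the reference for the high-fat diet and HFD the reference for O304. H3K27Ac, the acetylated form of lysine 27 on histone H3 found at active promoters and enhancers, and H3K27Me3, its trimethylated form laid down by Polycomb, were mapped by ChIP-seq in 2 replicates of pooled islets per mark and diet. The authors merged the 2 replicates before calling peaks, which left 1 list for each mark and diet and no replicate error, so no difference between diets could be tested. The time of day at which islets were taken is not given in the sources used here.

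In the mammalian clock CLOCK and BMAL1, the product of Arntl, bind E-boxes and drive the Per, Cry, Nr1d and Dbp genes, and the PER and CRY proteins feed back to block them. The REV-ERB receptors encoded by Nr1d1 and Nr1d2 repress Arntl through their own response element, and DBP acts through D-boxes. In islets this oscillator is known to time insulin secretion, and its loss in beta cells impairs glucose tolerance.

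The letters of these elements were searched in RefSeq promoter windows of GRCm38.p6, a C57BL/6J reference and not the CBA sequence, which reach from 250 bases before to 50 after a start, on both strands. Of the members 9 matched an entry, with 13 windows in all, and Per2 had none in the table used. The sequences below are those in which an element was found close to the start of a period gene or of Cry1, and they are shown because the H3K27Ac peaks described further on either cover the elements or stop short of them. Each is the 250 bases before the RefSeq start, 5′ to 3′ on the strand of the gene, with matches in capitals.
Per1, chr11:69098699-69098948, plus strand: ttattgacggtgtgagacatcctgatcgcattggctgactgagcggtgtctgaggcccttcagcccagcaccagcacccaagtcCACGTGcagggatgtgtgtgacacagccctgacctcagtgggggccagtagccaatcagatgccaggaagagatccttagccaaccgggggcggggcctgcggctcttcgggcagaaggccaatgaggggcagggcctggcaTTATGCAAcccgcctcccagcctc
Per3, chr4:151044666-151044915, minus strand: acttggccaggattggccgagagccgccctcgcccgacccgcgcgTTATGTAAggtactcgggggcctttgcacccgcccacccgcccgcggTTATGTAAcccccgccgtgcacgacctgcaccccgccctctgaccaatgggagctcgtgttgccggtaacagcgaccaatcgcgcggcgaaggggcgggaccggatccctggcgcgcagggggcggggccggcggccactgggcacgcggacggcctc
Cry1, chr10:85185055-85185304, minus strand: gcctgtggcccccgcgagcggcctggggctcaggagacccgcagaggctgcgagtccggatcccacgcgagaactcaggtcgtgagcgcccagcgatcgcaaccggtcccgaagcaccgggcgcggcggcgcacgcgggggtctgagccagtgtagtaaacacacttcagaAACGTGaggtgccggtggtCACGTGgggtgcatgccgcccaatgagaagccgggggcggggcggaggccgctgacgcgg

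In Per1 the capitals mark an E-box (CACGTG) that began 166 bases before the start and a D-box (TTATGNAA) that began 24 bases before it. In Per3 they mark 2 copies of the D-box, 205 and 158 bases before the start. In Cry1 they mark an E-box 60 bases before the start and, 79 bases before it, an E-prime box (CACGTT, read here on the other strand as AACGTG). The E-prime box also occurred before Cry2 and Nr1d1, 166 and 28 bases ahead of their starts. The full REV-ERB element (AGTAGGTCA) was found in Arntl, within the transcribed part of the window, 28 bases after a RefSeq start, and is shown because this gene is the known target of the REV-ERB receptors.
Arntl, chr7:113207528-113207557, plus strand: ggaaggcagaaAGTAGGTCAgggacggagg

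Among 32851 windows of that length over all genes, 7.15% held the E-box, 4.68% the E-prime box, 3.38% the D-box and 0.192% the REV-ERB element. The shares describe letters only and say nothing of binding. The H3K27Ac peaks of all 3 diets covered the E-boxes of Per1 and Cry1, the E-prime boxes of Cry1, Cry2 and Nr1d1, the D-box of Per1 and the REV-ERB element of Arntl. At Per3 the HFD peak alone reached over the 2 D-boxes, as described below.

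H3K27Ac was called at the promoters of all 10 clock genes in each of the 3 diets, whereas 44.0%, 49.8% and 49.3% of all protein-coding genes carried it in RD, HFD and HFD-O304, and 42.4% in all 3. H3K27Me3 was called at 0 of the 10 promoters, and at 6.68%, 8.51% and 8.94% of those of all genes in the same order of diets. For a list of 10 genes, 0 lies near these shares. The height of a peak is given here as its mean pileup, the number of fragments over a base, divided by the uniform background of its list, and intervals are 95% Poisson intervals that cover counting error only. Over the 10 members the RD heights ran from 3.41 to 5.18, the HFD heights from 3.30 to 5.16 and the HFD-O304 heights from 3.59 to 5.88. Their medians were 3.78, 4.01 and 3.86, beside a median of 3.17, 3.27 and 3.31 over all promoters with a peak.

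The order of the heights separated a tall from a low set in RD. There Nr1d2 at 5.18, Cry1 at 4.74, Per3 at 4.73 and Clock at 4.58 stood above Dbp at 3.86, Per1 at 3.70, Arntl at 3.66, Per2 at 3.57, Nr1d1 at 3.52 and Cry2 at 3.41. The counting intervals of neighbours in this order overlapped at every step but the one from Clock to Dbp. In HFD and in HFD-O304 the intervals of all neighbours overlapped, with Cry1 first and Cry2 last in HFD, and Per3 first and Dbp last in HFD-O304.

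The width of the promoter peak divided the members nearly as the RD heights did, in reverse. Per1, Per2, Cry2, Nr1d1 and Dbp lay under broad peaks, at or above the 97.3 percentile of the width of all promoters with a peak in every diet. Clock, Arntl, Cry1 and Nr1d2 had narrower ones of 1431 to 2197 bp over the 3 diets, still between the 71.9 and 92.7 percentiles. Per3 alone fell below the median width of all promoters, at the 34.6 percentile in RD and the 29.9 percentile in HFD-O304, and lay at the 70.8 percentile in HFD. The broad-peaked members all belonged to the low set of RD, and Arntl was the only narrower member in that set. A height is a mean over the called width, so a broad peak includes its weaker flanks. The splits by height and by width are therefore not independent.

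**Figure D1:**
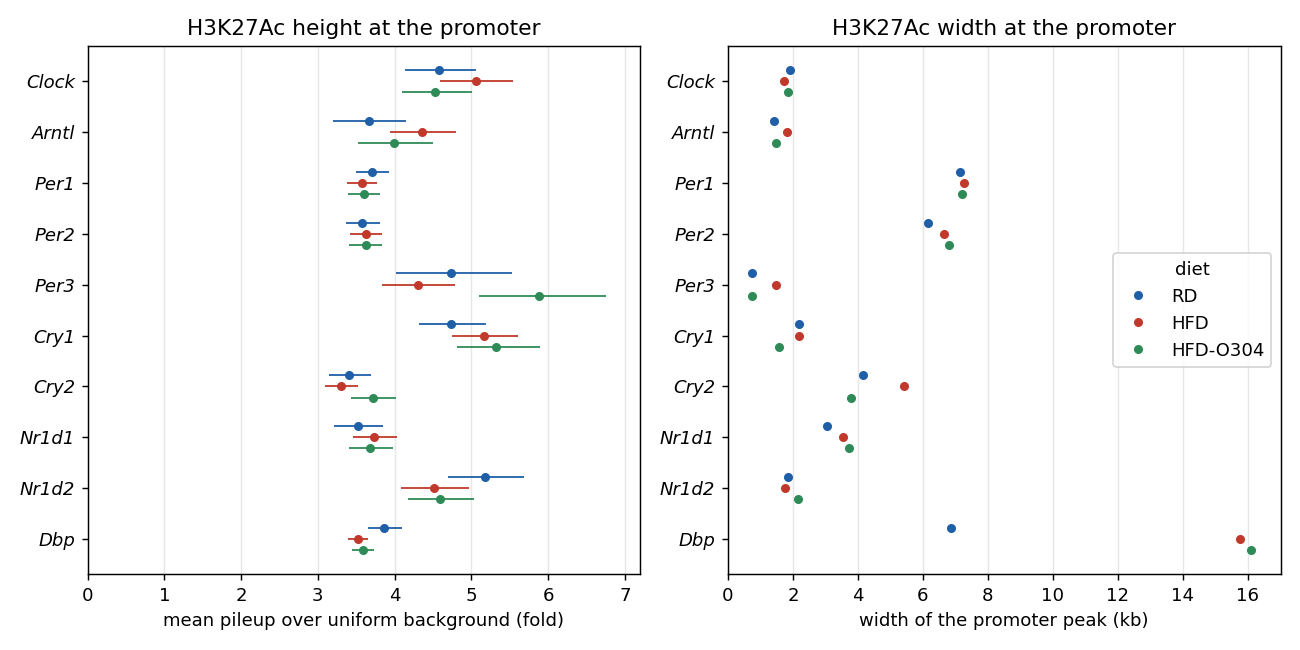
H3K27Ac at the promoters of the 10 clock genes. The left panel shows the mean pileup over uniform background with its 95% counting interval, the right panel the width of the promoter peak in kb, and each point is the 1 merged list of a diet (blue for RD, red for HFD, green for HFD-O304). Heights lie between 3.30 and 5.88, and Dbp in HFD and HFD-O304 has the widest peaks.

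Of the activators, Clock encodes the DNA-binding partner of BMAL1. Its promoter height was 4.58 (4.14 to 5.06) (RD), 5.06 (4.59 to 5.54) (HFD) and 4.53 (4.09 to 5.01) (HFD-O304), and the peak measured 1910, 1719 and 1851 bp. The 3 intervals overlapped, and the ratio of HFD to RD was 1.10 (0.96 to 1.26). At Arntl the height was 3.66 (3.20 to 4.15) (RD), 4.36 (3.94 to 4.80) (HFD) and 3.99 (3.52 to 4.50) (HFD-O304). HFD was highest there, and its ratio to RD, 1.19 (1.01 to 1.40), was the highest of the 10 members, while the peak widened from 1431 to 1808 bp. In HFD-O304 the Arntl peak was back to 1463 bp, and its height ratio to HFD was 0.92 (0.78 to 1.07).

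Among the period genes, whose proteins form the repressor complex with CRY, Per1 and Per2 varied little. Per1 had heights of 3.70, 3.57 and 3.60 in RD, HFD and HFD-O304 under a peak of 7132, 7263 and 7198 bp. This peak reached 5860 bp into the gene in RD and so covered the downstream starts used by RefSeq as well as the first annotated start. Per2 had heights of 3.57, 3.62 and 3.62 and widths of 6155, 6637 and 6791 bp in RD, HFD and HFD-O304. Its ratio of HFD to RD was 1.01 (0.93 to 1.10) and that of HFD-O304 to HFD 1.00 (0.92 to 1.08).

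Per3 differed most between the high-fat diets. Its height was 4.73 (4.02 to 5.53) (RD), 4.30 (3.84 to 4.79) (HFD) and 5.88 (5.10 to 6.76) (HFD-O304). The intervals of HFD and HFD-O304 did not overlap, and their ratio of 1.37 (1.15 to 1.63) lay at the 99.8 percentile of all promoters with a peak in both lists. The peak was 745 bp wide in RD, reached 1480 bp in HFD and was 750 bp with O304, and an estimated 158, 324 and 200 fragments lay under it, so the height of HFD-O304 rested on a short peak with few fragments. Since the height is a mean over the called width, height and width are not independent here. The widths differed at the upstream edge. The peak ended 48 bp before the start in RD and 35 bp before it in HFD-O304, but 789 bp before it in HFD. Both D-boxes printed above therefore lay inside the called peak in HFD and outside it in RD and HFD-O304.

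The cryptochromes complete the repressor complex. Cry1 had heights of 4.74 (4.32 to 5.19) (RD), 5.16 (4.75 to 5.61) (HFD) and 5.32 (4.81 to 5.89) (HFD-O304). Its width was almost equal in RD and HFD, at 2191 and 2197 bp, and 1566 bp in HFD-O304, where the peak ended 946 bp into the gene instead of 1721 bp in HFD. Cry2 had heights of 3.41 (3.15 to 3.69), 3.30 (3.09 to 3.52) and 3.72 (3.43 to 4.02) in RD, HFD and HFD-O304, and widths of 4163, 5412 and 3791 bp. The height of Cry2 was thus lowest where its peak was widest, and the ratio of HFD-O304 to HFD was 1.13, with an interval whose lower bound was 1.02. The HFD-O304 value leaves out a short second peak described below.

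The REV-ERB receptors link the clock to heme and lipid metabolism. Nr1d1 had heights of 3.52, 3.73 and 3.68 in RD, HFD and HFD-O304, and the ratio of HFD to RD was 1.06 (0.94 to 1.19). The Nr1d1 peak measured 3053, 3536 and 3730 bp. Nr1d2 was highest in RD, at 5.18 (4.69 to 5.69), with 4.51 (4.08 to 4.97) for HFD and 4.59 (4.18 to 5.04) for HFD-O304. The ratio of HFD to RD was 0.87 (0.76 to 1.00), the lowest among the members and at the 4.41 percentile of all promoters, and that of HFD-O304 to RD was 0.89 (0.78 to 1.01).

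Dbp, a PAR bZIP factor whose transcription follows CLOCK and BMAL1 closely, showed the largest change in breadth. The promoter peak was 6871 bp wide in RD, and HFD and HFD-O304 had peaks of 15747 and 16097 bp. In RD a second H3K27Ac peak followed after a gap of 2147 bp, and in both high-fat diets a single peak spanned the gap and also covered the promoters of the neighbours Rpl18 and Sphk2. Both RD peaks combined covered 13490 bp at a height of 3.60, next to 3.52 in HFD and 3.59 in HFD-O304. The promoter peak alone had 3.86 in RD. The gain in width thus came mostly from the joining of 2 peaks that were both called in RD.

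**Figure D2:**
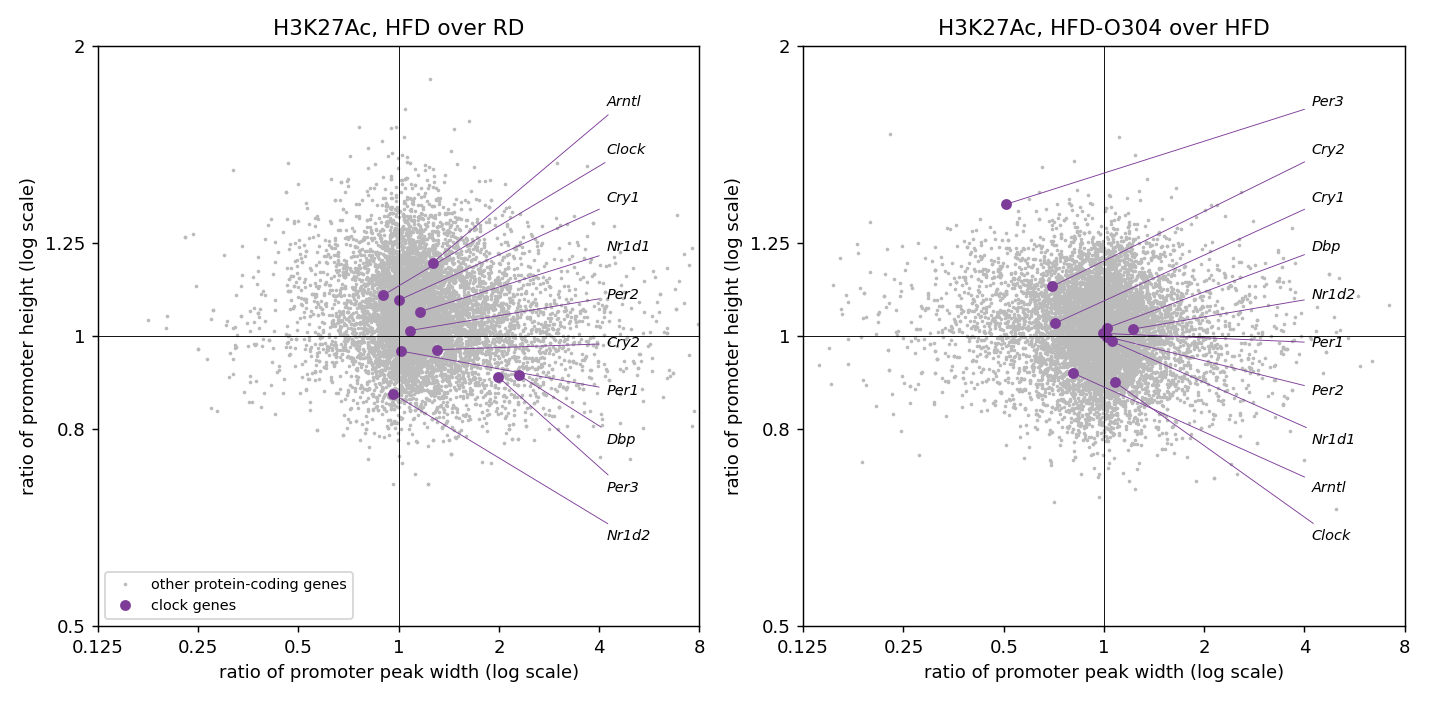
Ratios of H3K27Ac promoter height (vertical, log scale) and width (horizontal, log scale) for HFD over RD and HFD-O304 over HFD. Grey points are other protein-coding genes with a promoter peak in both lists, purple points the 10 clock genes, and 27 grey points fall outside the axes. Per3 stands at 1.37 in height and 0.51 in width for HFD-O304 over HFD, and Dbp at 2.29 in width for HFD over RD.

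A ratio of 0.8 or less was counted as lower, and its inverse or more as higher. For height in HFD over RD, 0 of the 10 members were higher by this measure (background 6.83% of promoters) and 0 lower (0.736%), with ratios from 0.87 to 1.19 and a median of 0.99. The median of all promoters was 1.047, and 66.4% of them had a ratio above 1, compared with 5 of the 10 members. In HFD-O304 over HFD, 1 member was higher (1.99%), namely Per3, and 0 lower (1.24%). In HFD-O304 over RD, 0 were higher (7.91%) and 0 lower (0.709%). The counting interval of the ratio left out 1 for 3 members in HFD over RD (9.82% of all promoters), Arntl, Nr1d2 and Dbp, for 2 in HFD-O304 over HFD (4.86%), Per3 and Cry2, and for 2 in HFD-O304 over RD (9.99%), Per3 and Dbp. For Dbp the RD value is that of the promoter peak alone. For Cry2 the HFD-O304 value likewise leaves out a second peak that overlaps the span of the HFD peak. With it the height was 3.63 against 3.30 in HFD, and no interval was computed for that joined value. The interval of a ratio narrows with the fragments under its peaks. The members had wider peaks, with a median of 2622 bp in RD against 970.5 bp over all promoters with a peak. The shares of all promoters are thus not matched to the members in counting power. The intervals above were set against 1. The median ratio of all promoters was 1.047 in HFD over RD and 1.060 in HFD-O304 over RD. Set against these medians, Arntl in HFD over RD (1.01 to 1.40) and Per3 in HFD-O304 over RD (1.01 to 1.53) would not be counted. Per1 would be counted in HFD over RD (0.89 to 1.04) and in HFD-O304 over RD (0.90 to 1.05). So would Nr1d2 in HFD-O304 over RD (0.78 to 1.01). The members named thus depend on the scaling.

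For width in HFD over RD, 4 members were wider (36.4% of all promoters) and 0 narrower (9.00%). These were Arntl at 1.26, Per3 at 1.99, Cry2 at 1.30 and Dbp at 2.29. In HFD-O304 over HFD, 0 were wider (17.2%) and 3 narrower (21.8%), with Per3 at 0.51, Cry1 at 0.71 and Cry2 at 0.70. At Cry2 the HFD-O304 list held a second peak of 369 bp beside the promoter peak, overlapping the span of the HFD peak, and its 2 peaks covered 4160 bp at a height of 3.63, so part of the narrowing was a split. In HFD-O304 over RD, Dbp at 2.34 was the 1 wider member (33.9%) and Cry1 at 0.71 the 1 narrower (11.3%). The 3 comparisons share lists. The 4 of 10 wider in HFD over RD and the 3 of 10 narrower in HFD-O304 over HFD lay near the shares of all promoters. The HFD list was also the deepest, with 95218072 fragments kept against 83773042 for RD and 84694188 for HFD-O304, and it could call weaker signal, down to a fold of 2.17 against 2.28 and 2.25. The part of depth in the widths was not tested.

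Around the 10 genes, the H3K27Ac peaks of the 3 diets joined into 38 regions. The RD list held 27 of these, the HFD list 33 and the HFD-O304 list 32, where the lists held 60.8%, 81.7% and 76.2% of all H3K27Ac regions. In all 3 diets 26 regions were present, a share of 68.4%, where 50.5% of all H3K27Ac regions were. The 38 include the members' own 10 promoters, all present in the 3 diets. Away from these promoters 16 of 28 regions, or 57.1%, were present in all 3. None of the 38 was found in RD alone (background 4.38%), 5 in HFD alone (15.6%) and 5 in HFD-O304 alone (11.7%). RD and HFD shared 1 (3.79%), HFD and HFD-O304 shared 1 (11.8%), and RD and HFD-O304 shared 0 (2.16%) to the exclusion of the remaining diet. The RD peaks covered 65.7 kb, the HFD peaks 89.1 kb and the HFD-O304 peaks 79.7 kb. The ratio of HFD to RD was 1.36 at these loci and 1.43 over all peaks, and that of HFD-O304 to HFD 0.89 and 0.94.

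Away from the members' own promoters there were 28 regions. Of these, 9 lay at the promoter of a neighbouring gene, and 8 of the 9 were present in all 3 diets. The neighbours were Vamp2, 9130213A22Rik and Aloxe3 at the Per1 locus, Ilkap and Hes6 at Per2, Vamp3 at Per3, Mapk8ip1 at Cry2, Msl1 at Nr1d1 and Car11 at Dbp. The Car11 peak was called in HFD alone, with a height of 2.58. The Vamp2 and Vamp3 peaks, at genes for vesicle fusion proteins, were as tall as those of the clock genes, at 5.20, 4.85 and 5.14 for Vamp2 and 4.92, 5.09 and 4.63 for Vamp3 in RD, HFD and HFD-O304. The remaining 19 regions touched no protein-coding start, and 8 of them, or 42.1%, were present in all 3 diets. The matching shares over all regions at promoters and away from them were not computed.

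**Figure D3:**
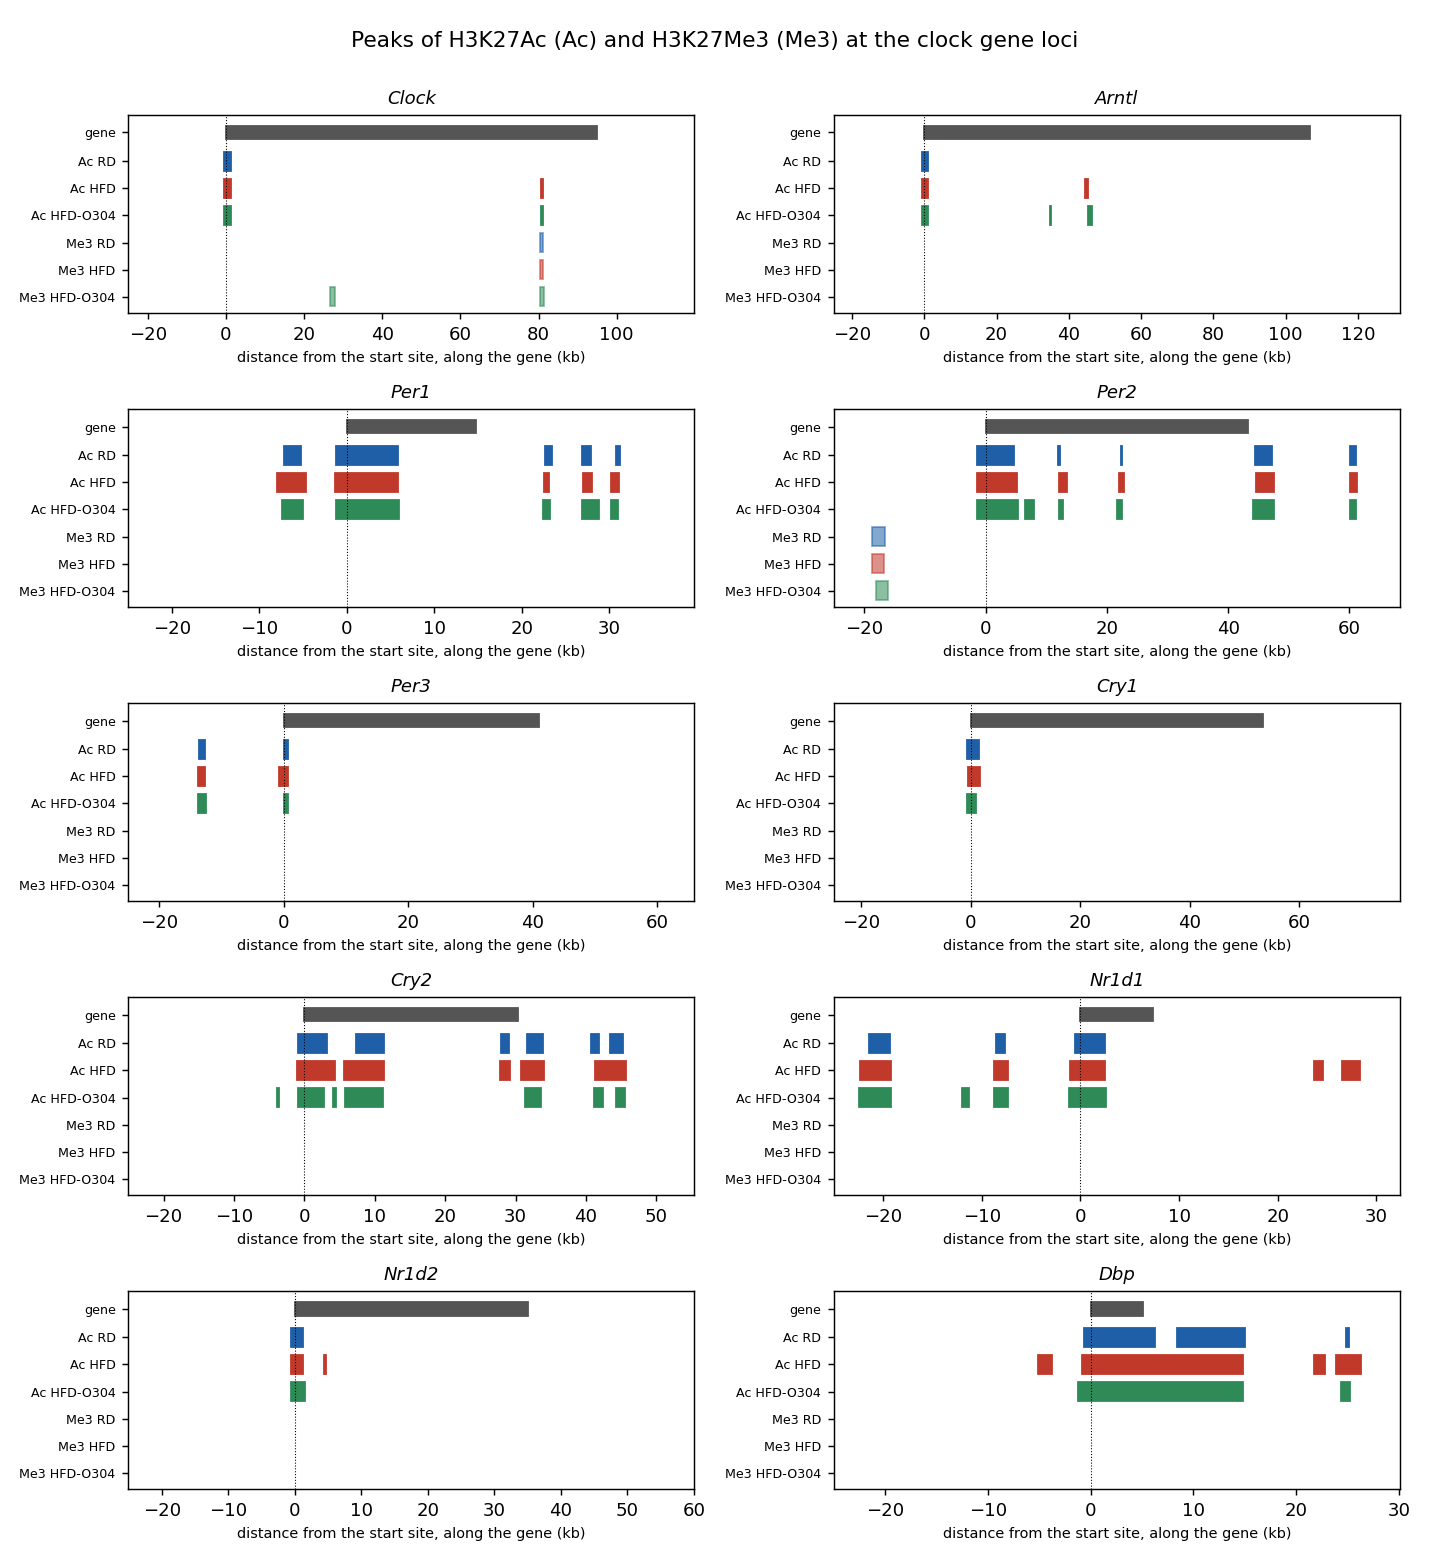
Peaks at the 10 loci, by distance in kb from the start site along the direction of the gene. Bars are called peaks of H3K27Ac (upper 3 rows) and H3K27Me3 (lower 3 rows, paler) with blue for RD, red for HFD and green for HFD-O304, and the grey bar is the gene. H3K27Ac sits at every start site in all diets, Cry1 has no further peak, and the 2 peaks at Dbp in RD are 1 peak in HFD and HFD-O304.

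The loci differed in how many such regions they held. Cry1 had its promoter peak only, and at Per3 the single further region was the Vamp3 promoter. Per2, Cry2 and Nr1d1 each had 5 regions besides the promoter. At Cry2, the one centred 8.5 kb into the gene was present in all diets at 3.14, 2.98 and 3.09 in RD, HFD and HFD-O304, and one at its 3′ end, centred 28.5 kb from the start, was called in RD at 2.50 and HFD at 2.46 and not in HFD-O304. At Nr1d1 a region 8.0 kb upstream had heights of 2.81, 3.25 and 2.76 in RD, HFD and HFD-O304. A further Nr1d1 region 27.4 kb downstream straddles the edge of the window and was kept whole, although only its HFD peak overlaps the window. Counting a diet only where its own peak does gives 26 regions for RD, 31 for HFD-O304, 25 in all 3 diets and 6 in HFD alone.

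A pair of intronic regions of Per2, centred 12.7 and 22.3 kb from the start, were present in all 3 diets at low heights of 2.27 to 2.57. Another, 7.3 kb from the start, was called in HFD-O304 alone at 2.46. Arntl had 3 regions within the gene, none of them in RD. One 34.9 kb from the start was called in HFD-O304 at 2.44, one at 44.9 kb in HFD at 2.41, and one at 45.9 kb in HFD-O304 at 2.38. The last 2 lie next to each other without overlap. Nr1d2 had an intronic peak 4.5 kb from the start in HFD alone, at 2.32. At Dbp, a region 22.3 kb from the start was called in HFD alone at 2.28.

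All of the 12 regions missing from at least 1 list were weak, with heights of 2.28 to 2.60, near the lowest height called in the lists, 2.40, 2.26 and 2.37 in RD, HFD and HFD-O304. For 3 of them the best fold lay below the lowest fold that a list without the region could call, so their absence there was not detectable as a difference at this depth. These were the region at 45.9 kb in Arntl, that in Nr1d2 and that at 22.3 kb at Dbp. For the Arntl region, with a fold of 2.26, this held for RD (lowest fold 2.28) and not for HFD (2.17), which also lacked it.

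H3K27Me3 was found in 3 regions, at Clock and Per2, of which 2 were present in all 3 diets (34.5% of all H3K27Me3 regions) and 1 in HFD-O304 alone (27.4%). An intronic region of Clock, centred 80.9 kb from the start, was present in all 3 diets with heights of 4.92, 4.76 and 4.03 in RD, HFD and HFD-O304. At the same place H3K27Ac was called in HFD and HFD-O304, at 2.45 in both. These H3K27Ac peaks, of 602 and 457 bp, were likewise repeat-masked over 100% of their length. A second Clock region, at 27.3 kb, carried H3K27Me3 in HFD-O304 alone, at 4.03. The region 17.4 kb upstream of Per2 had heights of 3.19, 3.10 and 3.49 in RD, HFD and HFD-O304. In each of the 3 regions every H3K27Me3 peak consisted of repeat-masked sequence over 100% of its length. With peaks of at least 50% repeats left out, 0 regions remained. The H3K27Me3 lists rested on 74870300, 54166902 and 57324419 kept fragments, after removal of 45.7% to 56.9% of the fragments as duplicates, and their lowest called folds were 2.53, 2.76 and 2.69, above those of H3K27Ac.

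The other genes of the pathway were taken from a list of 21. At their promoters the RD list had H3K27Ac at 18, the HFD list at 20 and the HFD-O304 list at 19, with 17 marked in all 3 diets. Arntl2, a paralogue of Arntl, had heights of 2.60 in HFD and 2.66 in HFD-O304 and no peak in RD. Timeless was marked in HFD at 2.80 and HFD-O304 at 2.44, again not in RD. Csnk1e, a kinase that phosphorylates PER proteins, was marked in RD at 2.51 and HFD at 2.26 and not in HFD-O304. These were narrow, weak peaks of 271 to 459 bp. Rorb, which encodes a receptor for the same element as the REV-ERBs, had no H3K27Ac peak in any diet, and a peak of H3K27Me3 in HFD alone, 448 bp wide with a height of 3.29.

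**Figure D4:**
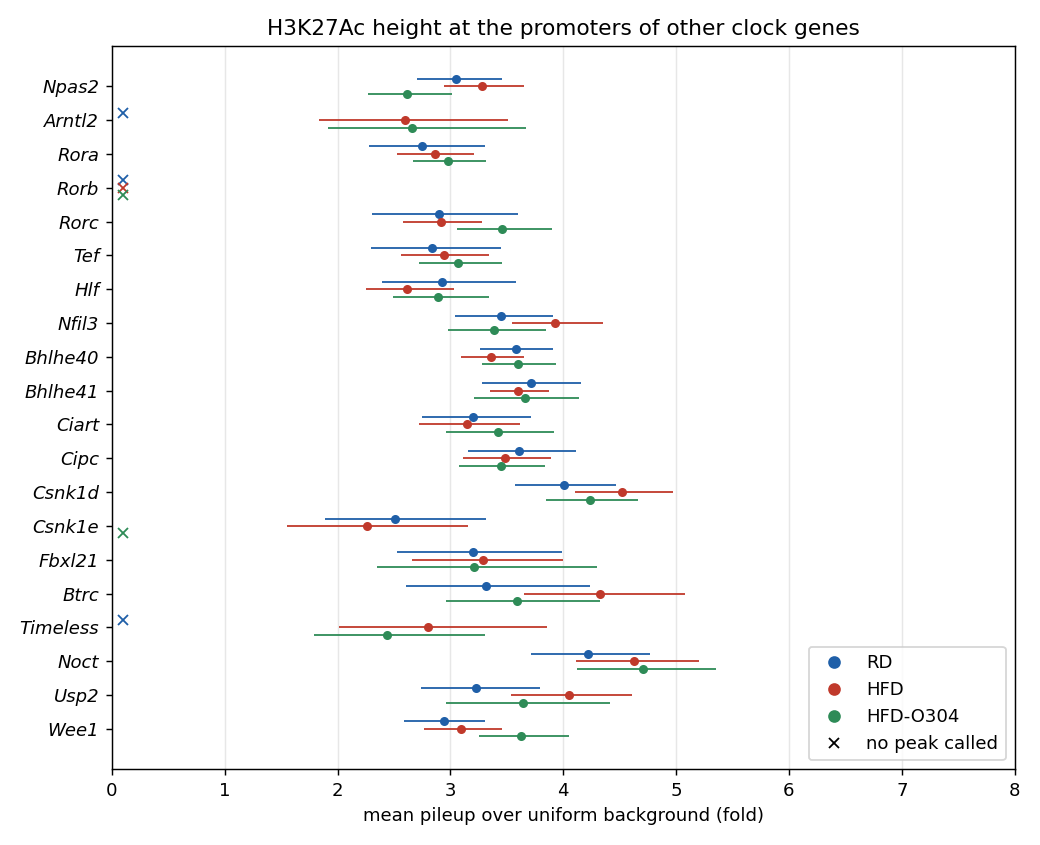
H3K27Ac height at the promoters of 20 other clock genes, as mean pileup over uniform background with 95% counting intervals, 1 merged list per diet (blue for RD, red for HFD, green for HFD-O304). Crosses stand for no peak called. Rorb has none in any diet, and Arntl2, Csnk1e and Timeless lack it in 1 diet each.

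Their median height was 3.21, 3.29 and 3.45 in RD, HFD and HFD-O304, lower than that of the 10 members in each diet. In HFD and RD, 18 of the other clock genes had a peak in both lists. Among those whose values are given here, Btrc and Usp2 were past the measure used above and higher in HFD over RD (6.83% of all promoters). Lower were 0 genes (0.736%). Btrc, part of the ligase that acts on PER proteins, had 3.32 and 4.33 in RD and HFD, and its ratio of 1.30 (0.98 to 1.74) had an interval that included 1. Usp2 had 3.23 and 4.05, and the interval of its ratio ran from 1.02 to 1.54. In HFD-O304 over HFD, 0 of 19 were higher (1.99% of all promoters) and 1 was lower (1.24%). This was Npas2, which encodes a stand-in for CLOCK, at 2.62 against 3.28 and a ratio of 0.80 (0.67 to 0.95).

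The genes whose promoters were most like those of the members were found by the distance between log2 heights and log2 widths in the 3 diets, 6 values per gene, over 9349 genes with a peak in every diet. Napa was nearest to both Per1 (distance 0.14) and Per2 (0.23). N4bp2 was nearest to Clock (0.11), Naa15 to Arntl (0.12) and Csrnp1 to Nr1d1 (0.15). Tle3 lay nearest to Cry2 (0.28), Ogdh to Nr1d2 (0.30) and Dnaja4 to Cry1 (0.38). The least matched were Per3, with Sec63 at 0.44, and Dbp, with Zfp984 at 0.66.

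As a check of the tissue, H3K27Ac was looked for at the starts of islet endocrine genes, counting every annotated start of a gene. It was present at 6, 7 and 6 of 10 in RD, HFD and HFD-O304, among them Ins2, Pdx1, Nkx6-1, Mafa and Isl1 in every diet, but at none of Iapp, Gcg and Sst. Of 5 acinar genes Bhlha15 alone was marked, and of the ductal genes Krt19 was marked in HFD-O304 alone and Sox9 in no diet. No marker of endothelial, immune or mesenchymal cells, 3 of each, had an H3K27Ac peak in any diet. By the single gene start used for the clock genes, a stricter rule, the islet endocrine counts were 5, 6 and 5 of 10. Ins2 and Krt19 were then marked in no diet. Whole islets hold several cell types, and the part of any one of them in the clock gene peaks was not tested.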

How the data were processed

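ChIP-seq of H3K27Ac and H3K27Me3 was done by the authors on CBA mouse islets, with 12 ChIP samples and 3 inputs over 3 diets. Groups follow the mark and diet in the sample titles. The authors mapped reads to GRCm38 (Ensembl release 96) with Bowtie2, merged the 2 replicates of a group and ran MACS 2.1.2 in broad mode. Per the file headers the q-value cutoff was 0.01, 1 fragment was kept per position, no control was given and the background was uniform. The study's methods state the same value as the FDR limit, while the options listed there give a looser cutoff. The pileup deposited by the authors is a coverage signal, the mean number of fragments over a base. The deposited fold is the ratio of pileup to background, each plus 1, and the deposited −log10 q is a MACS score. Inputs were not analysed here.

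The background was computed as kept fragments times fragment size over 1.87e+09 bases. Where several peaks touched a promoter, heights were averaged by width and widths summed. Peaks of a mark overlapping by 1 bp were joined into regions. Fragments under a peak were estimated as pileup times width over fragment size. With 1 list per group no test was run, and a ratio of 0.8 or its inverse was used for counting. All 10 members, the other clock genes with diet-dependent presence, a ratio past the threshold or H3K27Me3, the neighbours with a promoter under a peak and the nearest gene of each member are named. The members and lists were chosen with earlier results of these data known. Other peak thresholds, windows, flanks, joins, scalings and a repeat filter were tried. Scripts (Python 3.11.15, numpy 2.4.6, scipy 1.17.1) were tested on simulated data. Values of 1 other clock gene and 1 ductal gene are not reported here, though counts over the lists include them.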

Additional observations from a re-analysis of the deposited data

How the results depend on the processing

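Of 154 counts recomputed under alternatives, 134 stayed within 1.5 times the reported count and 20 moved. With calls at 1.5-fold, the members higher in HFD-O304 over HFD went to 0, those wider in HFD over RD to 2, and those narrower to 1 in HFD-O304 over HFD and to 0 in HFD-O304 over RD. With −log10 q of at least 5, the H3K27Ac regions went to 21 in all, 17 in all 3 diets, 21 in HFD and 17 in HFD-O304, and the H3K27Me3 regions to 1 in all 3 diets, 1 in RD and 1 in HFD. Under that limit RD held 18 H3K27Ac regions, within 1.5 times its main count of 27. HFD-O304 then held fewer H3K27Ac regions than RD, where the main counts were 32 and 27. With a flank of 50 kb the H3K27Ac regions in HFD numbered 50. With a flank of 10 kb the H3K27Me3 regions were 1 in all 3 diets, 1 in RD and 1 in HFD. Without repeat-rich peaks the H3K27Me3 regions were 0 in all, 0 in all 3 diets and 0 in each single diet. These alternatives keep fewer peaks, ask for a larger ratio or widen the window by construction. A common fold cutoff (2.28 for H3K27Ac and 2.76 for H3K27Me3), start sites of any transcript, a window of 2 kb, joining over 1000 bp, median scaling and the deposited fold moved 0 counts, as did counting a diet only where its own peak overlaps the locus window, an alternative chosen after seeing the data. The counts of members whose interval left out 1 were not recomputed. Median scaling and the deposited fold kept all 30 height ratios within their counting intervals. Median scaling took 4 ratios from above 1 (1.01 to 1.05) to below it (0.95 to 0.99), those of Per2 in HFD over RD, Per1 in HFD-O304 over HFD, and Per2 and Nr1d1 in HFD-O304 over RD, none of which was counted as higher.

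No paired analysis was possible because each group had 1 list from merged replicates, which likewise left no replicate to leave out. The counting intervals hold no variation between animals or pools, so they understate the error of every comparison between diets.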
